A study of Saccharomyces cerevisiae with 15 samples.

Results

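The 10 genes described here, of 7126 in the deposited expression table, encode the G1 cyclins and the regulators of Start, the step late in G1 at which a budding yeast cell commits to a new division. They were chosen by name for these roles. They are the upstream cyclin gene CLN3, the inhibitor gene WHI5, the transcription factor genes SWI4 and MBP1, the G1 cyclin genes CLN1 and CLN2, the cyclin gene PCL1, the S-phase cyclin genes CLB5 and CLB6, and the inhibitor gene SIC1. All 10 were among the 6474 genes tested, those that reached 1 FPKM in 3 or more of the 15 libraries. FPKM counts the fragments assigned to a gene per unit of its length and of the mapped total, so levels can be set side by side between genes.

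Cln3 bound to the kinase Cdc28 acts first at Start and relieves the repression that Whi5 exerts on SBF, the factor made of Swi4 and Swi6. SBF and the related factor MBF, made of Mbp1 and Swi6, then switch on CLN1, CLN2, PCL1, CLB5 and CLB6. The Cln1 and Cln2 kinases mark the inhibitor Sic1 for destruction, which frees the Clb5 and Clb6 kinases to start DNA replication. Much of the control of Cln3, Whi5 and Sic1 is on the protein, which RNA levels do not show.

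Polyadenylated RNA of Saccharomyces cerevisiae grown in YPD at 30 °C was measured in 5 groups of 3 libraries, numbered 0, 1 and 2. The Ulp2 protease removes the small protein SUMO from its targets, Slx5 is part of a ubiquitin ligase that recognizes SUMO chains, and Set1 methylates histone H3. The series title ties loss of Ulp2 to an aneuploidy of several chromosomes, and CLN3 lies on chromosome I and SIC1 on chromosome XII, the chromosomes whose genes were mostly higher in ulp2. The double mutant, called ulp2 slx5, carried ulp2delta_::kanMX and slx5delta_::kanMX. The ulp2 strain carried ulp2delta_::kanMX, the slx5 strain slx5delta_::kanMX and the set1 strain set1delta_::HIS3. Per the labels, these 4 strains were MATalpha and also carried met15delta_0, whereas the wild type (WT) was MATa with no such allele listed. The alleles his3delta_1, leu2delta_0, ura3delta_0 and lys2delta_0 were listed for every strain, WT included. Each group was 1 strain, and nothing in the labels says that its 3 libraries came from separate cultures, so p-values measure the spread between these libraries.

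The libraries matched their deletions but not every other label. ULP2, SLX5 and SET1 stayed at or below 0.125 FPKM in each library of the strains that lack them. MATa marker genes, 8 in all, summed to 7947 to 9257 FPKM in the double mutant, 871 to 1092 in ulp2, 255 to 474 in slx5, 109 to 249.7 in set1 and 13700 to 16510 in WT, with HMRA1 at 0 in slx5 and set1. The 6 MATalpha markers summed to 56.9 to 62.1 FPKM in the double mutant, 6524 to 6944 in ulp2, 7656 to 7689 in slx5, 6218 to 6640 in set1 and 48.6 to 50.9 in WT, with HMLALPHA1 and HMLALPHA2 at 0 throughout. The double mutant therefore expressed MATa genes, as WT did but at a lower sum, against its label, and mating type cannot be told apart from the deletion in ulp2, slx5 or set1 against WT. LYS2 had at least 34.7 FPKM in the double mutant, ulp2 and slx5 despite the listed lys2 allele. MET17, the gene also called MET15, had 224 to 234 FPKM in the double mutant, 286 to 329 in ulp2, 0.359 to 1.06 in slx5, 288 to 319.6 in set1 and 120.1 to 153 in WT, so of the 4 strains listed with the met15 allele slx5 alone was near 0. Markers of entry into meiosis, 8 genes, summed to 56.4 to 62.1 FPKM in the double mutant, 77.3 to 90.1 in ulp2, 57.1 to 60.7 in slx5, 51.4 to 57.6 in set1 and 40.4 to 46.7 in WT. The part of these differences in the results below was not tested. Depth in reads is not known. A rough relative depth, from the smallest steps in the values of low genes, ran from 0.465 in set1 replicate 0 to 1.05 in slx5 replicate 1, with WT replicate 1 as the unit.

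The sequences upstream of these genes are shown because SBF, MBF and Mcm1 act through short motifs there. In the 800 bases before the start codon, on both strands, 3 motifs were searched: the SBF motif SCB as CNCGAAA, the MBF motif MCB as ACGCGN, and the early cell cycle box, ECB, bound by Mcm1, as TTNCC and GGNAA with 6 bases of any kind between them. SCB and MCB matches can overlap. SCB occurred in 6 of the 10 genes and in 29.9% of 5997 upstream regions of the genome, MCB in 8 of 10 and 32.7%, and ECB in 3 of 10 and 2.87%. The 3 with an ECB match were SWI4, CLN2 and PCL1, and CLN3 and WHI5 held no SCB, MCB or ECB match in this window. The stretches below, for 5 of the genes, are the 150 bases with the most matches, 5′ to 3′ on the strand of the gene, with every match on either strand in capitals. They lie on build R64, from the RefSeq genome, at chrXIII:662077-662226 (plus strand), chrXVI:67116-67265 (minus), chrXIV:87512-87661 (plus), chrXVI:775479-775628 (minus) and chrVII:706826-706975 (minus).
CLN1: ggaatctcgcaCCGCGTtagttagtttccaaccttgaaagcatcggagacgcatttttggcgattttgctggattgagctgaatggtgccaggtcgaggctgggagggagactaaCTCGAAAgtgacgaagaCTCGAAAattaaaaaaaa
CLN2: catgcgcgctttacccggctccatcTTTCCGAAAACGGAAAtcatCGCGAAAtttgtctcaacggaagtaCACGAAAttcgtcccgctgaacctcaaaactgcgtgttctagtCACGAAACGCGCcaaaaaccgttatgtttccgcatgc
PCL1: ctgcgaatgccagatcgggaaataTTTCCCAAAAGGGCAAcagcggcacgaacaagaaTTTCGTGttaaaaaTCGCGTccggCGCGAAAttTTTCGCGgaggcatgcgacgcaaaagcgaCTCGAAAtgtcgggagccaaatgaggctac
CLB5: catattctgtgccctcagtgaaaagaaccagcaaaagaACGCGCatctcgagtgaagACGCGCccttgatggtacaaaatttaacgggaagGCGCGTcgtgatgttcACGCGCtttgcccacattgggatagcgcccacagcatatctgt
CLB6: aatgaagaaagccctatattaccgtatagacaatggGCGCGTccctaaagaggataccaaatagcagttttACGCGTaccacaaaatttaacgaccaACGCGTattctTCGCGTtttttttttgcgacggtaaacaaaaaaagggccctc
The CLN2 and PCL1 stretches open with an ECB match that is followed by SCB matches, 3 in CLN2 and 4 in PCL1. The stretches of CLB5 and CLB6 hold 4 MCB matches each and no SCB match. A match describes letters and does not show that a factor binds there.

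RNA of the upstream cyclin CLN3 was higher in both strains that lack ULP2, while RNA of the genes it acts on was lower. In ulp2 against WT, 2 of the 10 genes rose, CLN3 and SIC1, where 27.8% of all tested genes rose, and 6 fell, CLN1, CLN2, PCL1, CLB5, CLB6 and SWI4, where 26.7% fell. In the double mutant 1 rose, CLN3, against 32.9% of all tested genes, and the same 6 genes fell, against 29.4%. In slx5, 0 rose (25.6% of all tested genes) and 3 fell (25.1%), namely CLN1, CLB5 and CLB6. In set1, 0 rose (22.1%) and 6 fell (15.2%), namely CLN1, PCL1, CLB5, CLB6, SWI4 and SIC1. Groups that do not overlap gave a similar count. In the double mutant, 1 of the 10 genes lay wholly above WT (35.1% of all tested genes) and 6 wholly below (31.4%), in ulp2 2 (29.5%) and 6 (27.8%), in slx5 0 (29.5%) and 5 (29.1%), and in set1 1 (24.9%) and 6 (18.0%). The median log2 difference of the 10 genes was -0.42 in the double mutant, -0.35 in ulp2, -0.19 in slx5 and -0.37 in set1, and that of all tested genes was between -0.017 and 0.025. These 4 comparisons share the WT libraries and are not independent of each other. In RNA from whole cultures, a change in the share of cells at each stage of the cycle and a change of an RNA per cell cannot be told apart. Calls are adjusted p under 0.05 from limma on log2(FPKM + 1), with Benjamini-Hochberg adjustment over all tested genes.

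**Figure D1:**
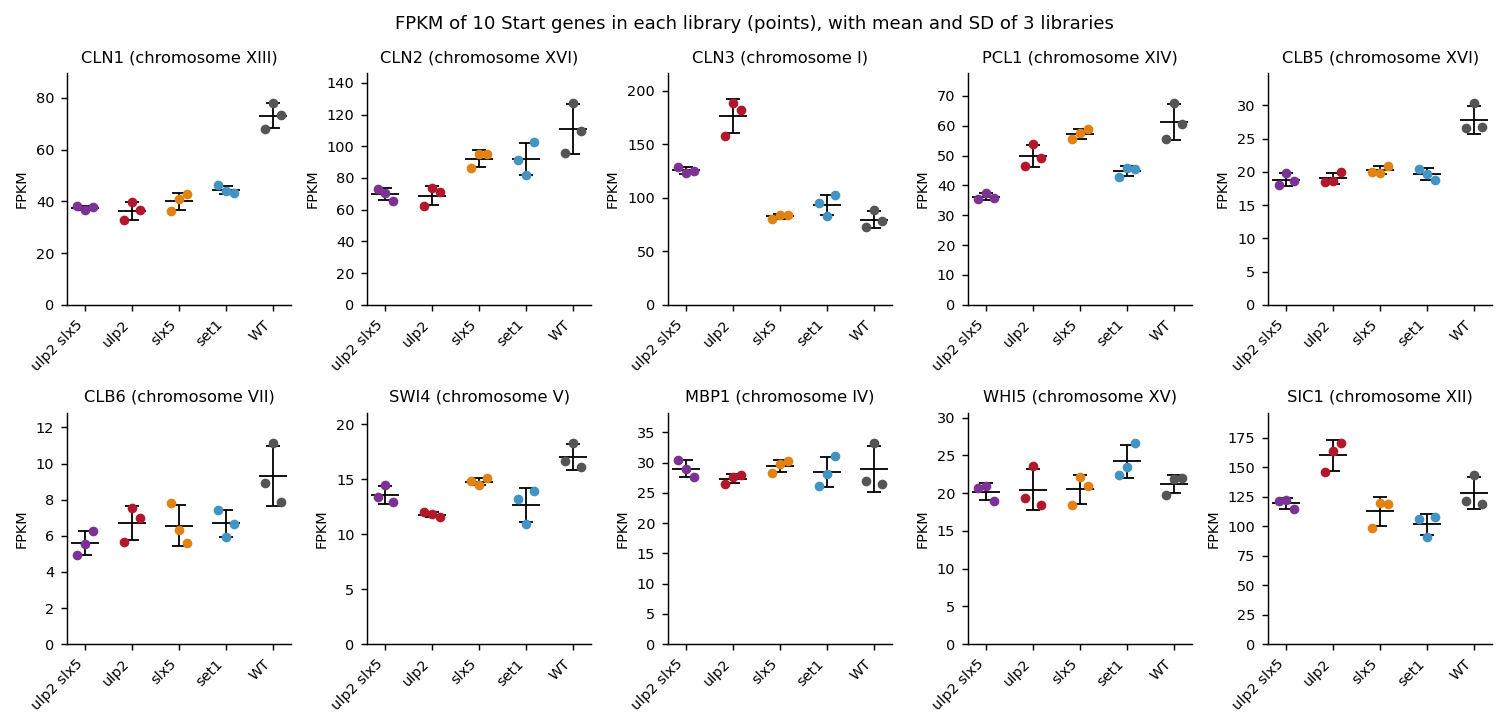
FPKM of the 10 genes (vertical axes, each from 0) in the 3 libraries of each group (points), with the mean and SD; groups run from the double mutant on the left to WT on the right. CLN3 stands highest in ulp2 at 158 to 188 FPKM, and CLN1 highest in WT at 68.0 to 77.8 FPKM.

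CLN3 (YAL040C, chromosome I, 65778 to 67520, minus strand) had 129, 123 and 125 FPKM in the double mutant, 158, 188 and 182 in ulp2, 79.9, 83.7 and 84.3 in slx5, 94.7, 83.2 and 102 in set1, and 72.5, 88.4 and 78.0 in WT. The ulp2 libraries lay above all others and the double mutant libraries above slx5, set1 and WT, whereas slx5 and set1 overlapped WT. Mean CLN3 was 2.21-fold that of WT in ulp2, a log2 difference of 1.14 ± 0.087 (SE, limma adjusted p = 2.61e-07), and 1.58-fold in the double mutant, 0.66 ± 0.087 (adjusted p = 2.85e-05). In slx5 the difference was 0.06 (adjusted p = 0.614). In set1 it was 0.23 (adjusted p = 0.0570), and this passed the test without set1 replicate 1 (adjusted p = 0.0180) or without WT replicate 1 (adjusted p = 0.0188). The set1 difference also passed with libraries scaled to an equal median outside chromosomes I and XII (adjusted p = 0.0390).

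The rest of chromosome I was higher too. In ulp2 minus WT, 87 of the other 90 tested genes on the chromosome rose and 0 fell, with a median of 0.89, and CLN3 ranked 26th of 91 from the highest. Set against the median deviation of its chromosome in each library, CLN3 was 0.19 higher in ulp2 than in WT on the log2 scale. These libraries overlapped (exact two-sided permutation test, p = 0.2, adjusted p = 0.291 over 16 tests). In the double mutant, the other genes of chromosome I had a median of 0.27 against WT, 44 rose and 9 fell, and CLN3 ranked 27th of 91. CLN3 relative to its chromosome was 0.37 higher in the double mutant than in WT, with no overlap (exact permutation p = 0.1, adjusted p = 0.2). That p is the smallest that 3 against 3 libraries allow, so no such comparison can pass 0.05.

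**Figure D2:**
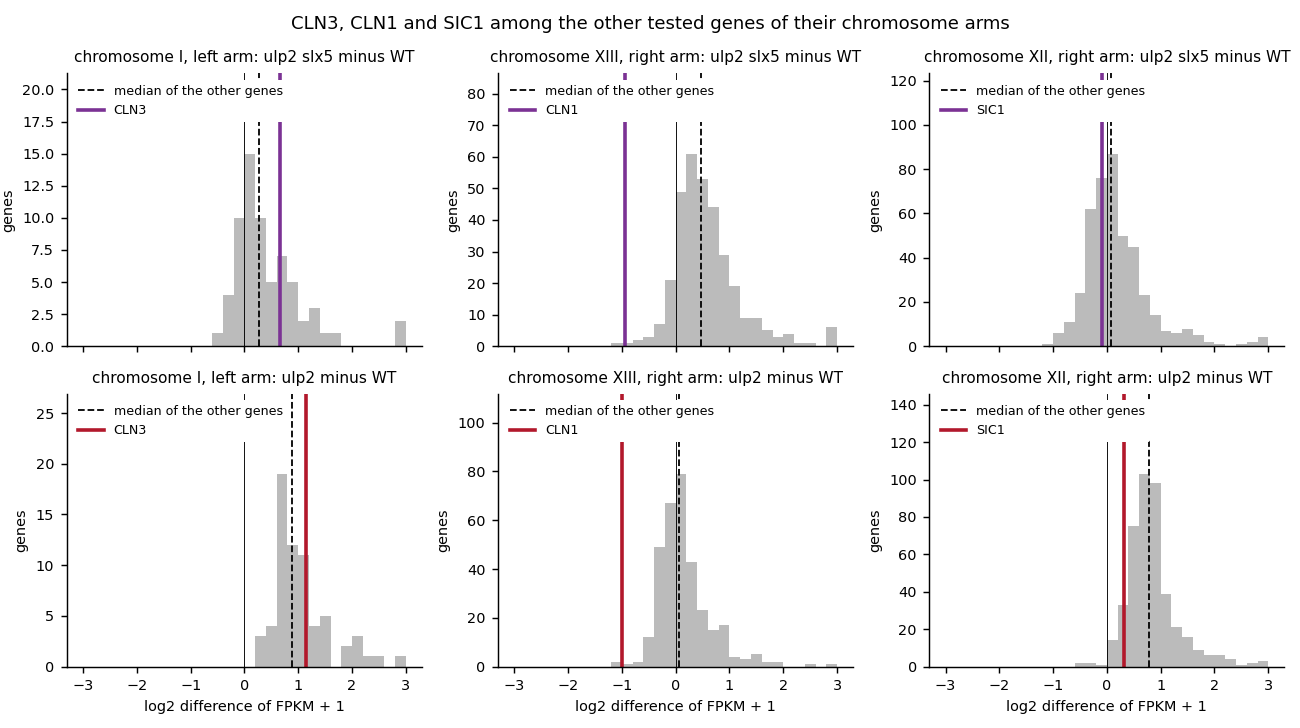
Log2 differences of FPKM + 1 (horizontal axes) of the tested genes on the arms that hold CLN3, CLN1 and SIC1 (grey bars, number of genes; values beyond 3 are put in the outermost bars), for ulp2 slx5 minus WT (top) and ulp2 minus WT (bottom). The coloured line is the named gene and the dashed line the median of the others: CLN3 in ulp2 lies at 1.14 beside a median of 0.88, and CLN1 in the double mutant at -0.94 beside 0.47.

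WHI5 and MBP1, the inhibitor of SBF and the DNA-binding subunit of MBF, did not pass the test in any of the 4 mutants. WHI5 (YOR083W, chromosome XV, 479533 to 480420) ranged from 18.4 to 26.7 FPKM over the 15 libraries, and its log2 differences from WT were -0.07 (95% confidence interval -0.28 to 0.15) in the double mutant, -0.05 (-0.27 to 0.16) in ulp2, -0.05 (-0.26 to 0.17) in slx5 and 0.18 (-0.03 to 0.40) in set1. In set1, WHI5 had 22.4, 23.5 and 26.7 FPKM, against 19.8, 21.9 and 21.9 in WT, which do not overlap (limma adjusted p = 0.172). MBP1 (YDL056W, chromosome IV, 352877 to 355378) ranged from 26.1 to 33.3 FPKM, with log2 differences between -0.07 in ulp2 and 0.03 in slx5. Quantile normalization, as an exception, called WHI5 lower in the double mutant (-0.24, adjusted p = 0.0471).

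SWI4 (YER111C, chromosome V, 382595 to 385876, minus strand), which encodes the DNA-binding subunit of SBF, had 13.4, 14.5 and 12.9 FPKM in the double mutant, 12.0, 11.8 and 11.5 in ulp2, 14.8, 14.5 and 15.1 in slx5, 13.2, 11.0 and 13.9 in set1, and 16.6, 18.3 and 16.1 in WT. Each mutant library lay below each WT library. The fall was 0.49 ± 0.084 in ulp2 (limma adjusted p = 0.000279), 0.40 in set1 (adjusted p = 0.00234) and 0.30 in the double mutant (adjusted p = 0.00668) on the log2 scale. In slx5 the difference was -0.19 (adjusted p = 0.0750). Scaling the libraries to an equal FPKM sum, leaving out the ribosomal protein genes RPL41A and RPL41B, ended the double mutant call (adjusted p = 0.326), while quantile normalization (adjusted p = 0.00375) and scaling to an equal median outside chromosomes I and XII (adjusted p = 0.0320) added one for slx5. Quantile normalization also made the difference -0.57 in the double mutant and -0.76 in ulp2.

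CLN1 (YMR199W, chromosome XIII, 662644 to 664284) had the most negative log2 difference from WT of the 10 genes in each mutant. It had 38.0, 36.6 and 37.6 FPKM in the double mutant, 32.6, 39.6 and 36.8 in ulp2, 36.4, 40.8 and 42.8 in slx5, 46.1, 44.0 and 43.1 in set1, and 68.0, 77.8 and 73.4 in WT. The lowest WT library lay above the highest of any mutant. CLN1 fell by 0.94 ± 0.077 in the double mutant (SE, limma adjusted p = 3.26e-07), by 0.99 in ulp2 (adjusted p = 2.90e-07), by 0.85 in slx5 (adjusted p = 1.23e-06) and by 0.70 in set1 (adjusted p = 1.63e-05). The double mutant libraries lay within the range of ulp2. The fall in the double mutant ran against its chromosome: of the other 457 tested genes on chromosome XIII, 344 rose in the double mutant and 16 fell, with a median of 0.48, and 2 of the 328 others on the right arm were lower than CLN1.

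CLN2 (YPL256C, chromosome XVI, 64977 to 66614, minus strand), the paralog of CLN1, was lower where ULP2 was missing. It had 72.9, 70.8 and 65.4 FPKM in the double mutant, 62.4, 73.4 and 71.0 in ulp2, 86.1, 95.2 and 95.3 in slx5, 91.5, 81.8 and 102 in set1, and 96.0, 127 and 109 in WT. The double mutant and ulp2 libraries overlapped each other and lay below the rest, and set1 overlapped WT. CLN2 fell by 0.65 ± 0.10 in the double mutant (SE, limma adjusted p = 0.000129) and by 0.67 ± 0.10 in ulp2 (adjusted p = 0.000137). The differences of -0.26 in slx5 (adjusted p = 0.0576) and -0.26 in set1 (adjusted p = 0.0636) did not pass the test. Without WT replicate 0 they did (adjusted p = 0.0135 in slx5 and 0.0178 in set1), and so did set1 without set1 replicate 2 (adjusted p = 0.0311). The slx5 difference also passed under quantile normalization (adjusted p = 0.0434) and scaling to an equal median outside chromosomes I and XII (adjusted p = 0.0307). The sum of CLN1 and CLN2 was 107 ± 3.95 FPKM in the double mutant, 105 ± 9.27 in ulp2, 132 ± 8.51 in slx5, 136 ± 9.92 in set1 and 184 ± 20.4 in WT (SD, n = 3 each).

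**Figure D3:**
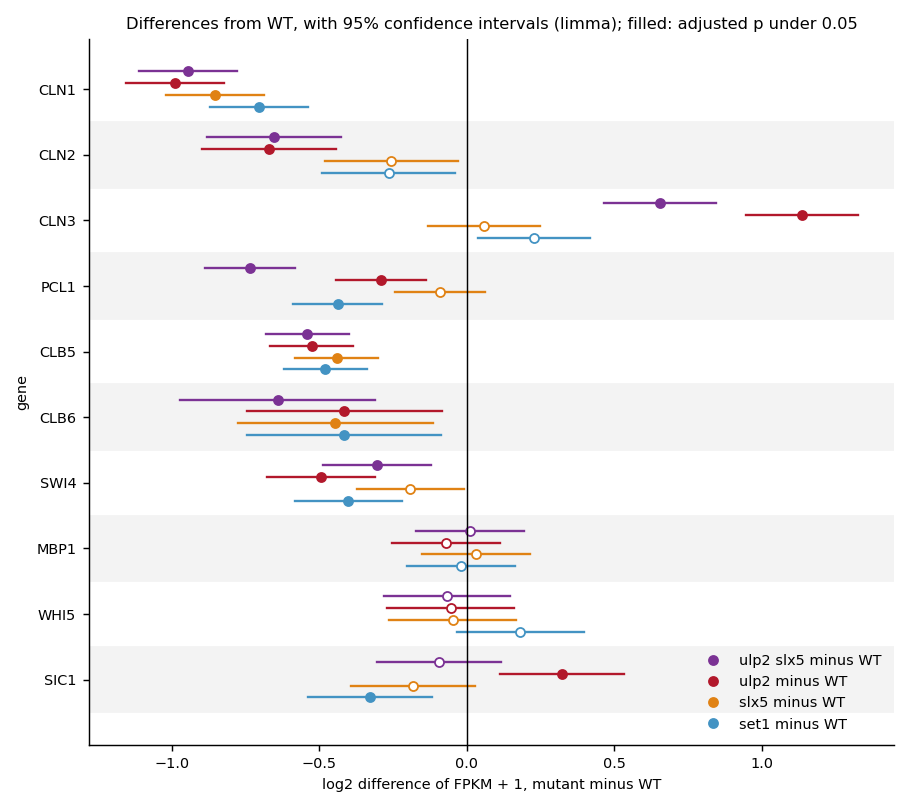
Log2 differences of FPKM + 1 from WT (horizontal axis) with 95% confidence intervals from limma for the 10 genes, in ulp2 slx5, ulp2, slx5 and set1 from top to bottom; filled points have an adjusted p under 0.05. CLN3 lies to the right of 0 in ulp2 (1.14) and the double mutant (0.66), and CLN1 to the left in every mutant (-0.99 to -0.70).

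PCL1 (YNL289W, chromosome XIV, 87897 to 88736), a G1 cyclin of the kinase Pho85, was lowest in the double mutant. It had 35.6, 37.5 and 35.8 FPKM in the double mutant, 46.5, 53.8 and 49.1 in ulp2, 55.4, 57.5 and 58.9 in slx5, 42.8, 46.0 and 45.6 in set1, and 55.7, 67.5 and 60.5 in WT. The double mutant lay below every other library, and slx5 overlapped WT. PCL1 fell by 0.74 ± 0.070 in the double mutant (SE, limma adjusted p = 1.38e-06), by 0.44 in set1 (adjusted p = 0.000346) and by 0.29 in ulp2 (adjusted p = 0.00341). In slx5 it was -0.09 (adjusted p = 0.303). The ulp2 call was lost under scaling to an equal FPKM sum (-0.21, adjusted p = 0.161).

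CLB5 (YPR120C, chromosome XVI, 773875 to 775182, minus strand), the main S-phase cyclin gene, lay between 18.0 and 20.9 FPKM in all 12 mutant libraries. It had 18.0, 19.9 and 18.6 FPKM in the double mutant, 18.5, 18.6 and 20.0 in ulp2, 19.9, 19.9 and 20.9 in slx5, 20.5, 19.7 and 18.8 in set1, and 26.6, 30.3 and 26.7 in WT. No mutant library reached the lowest WT library. Its fall was 0.54 in the double mutant, 0.53 in ulp2, 0.44 in slx5 and 0.48 in set1, each with an SE of 0.065, and the limma adjusted p ran from 1.11e-05 in the double mutant to 9.82e-05 in slx5. With an equal FPKM sum the slx5 difference was -0.29 (adjusted p = 0.0317).

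CLB6 (YGR109C, chromosome VII, 705359 to 706501, minus strand), the paralog of CLB5, had the lowest level of the 10 genes. It had 4.94, 5.54 and 6.27 FPKM in the double mutant, 5.65, 7.52 and 6.97 in ulp2, 7.81, 6.30 and 5.59 in slx5, 7.45, 5.95 and 6.67 in set1, and 8.92, 11.2 and 7.88 in WT. The mutant libraries lay below WT, the closest pair being 7.81 in slx5 and 7.88 in WT. CLB6 fell by 0.64 ± 0.15 in the double mutant (SE, limma adjusted p = 0.00261), by 0.41 in ulp2 (adjusted p = 0.0345), by 0.45 in slx5 (adjusted p = 0.0265) and by 0.42 in set1 (adjusted p = 0.0476). Under quantile normalization the difference was -1.11 in the double mutant, -0.93 in ulp2 and -0.76 in slx5. The double mutant call held in all 15 alternatives. Those of ulp2 were lost in 8 of 15, those of slx5 in 5 and those of set1 in 7. Without WT replicate 1 the adjusted p was 0.146 in ulp2, 0.117 in slx5 and 0.183 in set1. Without WT replicate 0 it was 0.0575 in ulp2 and 0.0768 in set1. The ulp2 call was also lost without ulp2 replicate 0 or 2 (0.129 and 0.0564), the slx5 call without slx5 replicate 1 or 2 (0.0712 and 0.108), and the set1 call without set1 replicate 1 or 2 (0.143 and 0.0938).

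SIC1 (YLR079W, chromosome XII, 286820 to 287674), the inhibitor of the Clb kinases, had 122, 123 and 114 FPKM in the double mutant, 146, 164 and 171 in ulp2, 98.8, 120 and 119 in slx5, 106, 91.1 and 108 in set1, and 122, 144 and 119 in WT. The ulp2 libraries lay above all others, and set1 below WT. SIC1 rose by 0.32 ± 0.097 in ulp2 (SE, limma adjusted p = 0.0129) and fell by 0.33 ± 0.097 in set1 (adjusted p = 0.0177). Both calls were lost without certain libraries: in ulp2 without ulp2 replicate 2 (adjusted p = 0.0545) or WT replicate 2 (0.0534), and in set1 without set1 replicate 1 (0.0767) or WT replicate 1 (0.0752). The set1 call was also lost under scaling to an equal FPKM sum (adjusted p = 0.0784) and in a fit of only the groups compared (adjusted p = 0.0668). In the double mutant it was -0.09 (adjusted p = 0.424) and in slx5 -0.18 (adjusted p = 0.135).

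SIC1 in ulp2 stood below the rise of its chromosome. Of the other 493 tested genes on chromosome XII, 455 rose in ulp2 and 0 fell, with a median of 0.78, and SIC1 ranked 457th of 494 from the highest. Relative to its chromosome SIC1 was -0.44 on the log2 scale in ulp2 minus WT, with no overlap (exact two-sided permutation test, p = 0.1, adjusted p = 0.2 over 16 tests). In set1, whose chromosome XII genes had a median of 0.04, the same quantity was -0.37 (exact permutation p = 0.1, adjusted p = 0.2).

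Among the mutants, the double mutant was set against ulp2. The double mutant expressed MATa genes and ulp2 MATalpha genes, and all 10 pheromone-induced genes of the list described below fell in this comparison, so mating type and loss of SLX5 cannot be told apart. CLN3, PCL1 and SIC1 fell (3 of the 10 genes, where 26.2% of all tested genes fell) and 0 rose (26.4%). The differences were -0.48 for CLN3 (limma adjusted p = 0.000464), -0.44 for PCL1 (adjusted p = 0.000144) and -0.42 for SIC1 (adjusted p = 0.00287), the last lost under scaling to an equal FPKM sum (adjusted p = 0.0628). The other genes of chromosomes I and XII had medians of -0.70 each in the same comparison. CLN1 (0.05, 95% confidence interval -0.12 to 0.21) and CLN2 (0.02, -0.21 to 0.24) did not pass the test. The other genes of chromosome XIII, where CLN1 lies, had a median of 0.37 in this comparison.

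Against slx5, the double mutant had 1 gene that rose (17.3% of all tested genes rose) and 2 that fell (13.4%). Here too all 10 pheromone-induced genes fell and the mating type genes differed, so mating type and loss of ULP2 cannot be told apart. CLN3 was 0.60 higher (limma adjusted p = 0.000204), where the other genes of chromosome I had a median of 0.20 and CLN3 ranked 7th of 91. PCL1 was -0.64 (adjusted p = 1.87e-05) and CLN2 -0.40 (adjusted p = 0.0111), and the CLN2 call was lost under scaling to an equal FPKM sum (adjusted p = 0.0827).

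The slx5 and set1 strains shared the MATalpha expression of ulp2, which allows comparisons of ulp2 with each at one mating type. Other differences remain. MET17 averaged 0.727 FPKM in slx5 against 310 in ulp2, and LYS2 averaged 0.0694 FPKM in set1 against 46.2 in ulp2. MATa marker sums were also higher in ulp2 than in either strain. The part of these differences was not tested. Against slx5, 2 genes rose (22.7% of all tested genes) and 3 fell (23.0%). CLN3 was 1.08 (limma adjusted p = 5.29e-07) and SIC1 0.51 (adjusted p = 0.000862), while CLN2 was -0.42 (adjusted p = 0.00566), SWI4 -0.30 (adjusted p = 0.0100) and PCL1 -0.20 (adjusted p = 0.0327). The PCL1 call was lost in 7 of 16 alternatives, among them without ulp2 replicate 0 (adjusted p = 0.122), ulp2 replicate 2 (0.0833), slx5 replicate 1 (0.0781) or slx5 replicate 2 (0.101), and with an equal median outside chromosomes I and XII (-0.12, adjusted p = 0.171). Against set1, 2 genes rose (22.8%), CLN3 by 0.91 (limma adjusted p = 2.64e-06) and SIC1 by 0.65 (adjusted p = 0.000120), and 2 fell (26.0%), CLN2 by 0.41 (adjusted p = 0.00601) and CLN1 by 0.29 (adjusted p = 0.00800). The set1 comparison lost CLN1 (adjusted p = 0.201) and CLN2 (adjusted p = 0.116) under scaling to an equal FPKM sum. CLN3 and CLN2 thus differed in opposite directions between ulp2 and each of slx5 and set1, comparisons that share the ulp2 libraries. The other genes of chromosome I had medians of 0.95 against slx5 and 0.83 against set1. Among them CLN3 ranked 20th and 36th of 91. Those of chromosome XII had medians of 0.75 and 0.71, each above the SIC1 difference. The part of the chromosomes in these differences was not tested.

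The double mutant was also set against the sum of the ulp2 and slx5 differences from WT, by an interaction term in the limma fit. This term was positive for 3 of the 10 genes (20.0% of all tested genes) and negative for 2 (21.8%) at an adjusted p under 0.05. CLN1, CLB5 and SWI4 were less low in the double mutant than the sum of both differences would give, and CLN3 and PCL1 were lower than it. Since WT and the double mutant expressed MATa genes and ulp2 and slx5 MATalpha genes, mating type and the interaction cannot be told apart.

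A ratio of 2 genes within a library does not depend on a factor applied to the whole library, though quantile normalization, which moves genes unequally, can change it. CLN3 to WHI5, the activator over the inhibitor, was 6.24, 5.87 and 6.60 in the double mutant, 8.16, 7.99 and 9.89 in ulp2, 4.34, 3.78 and 4.03 in slx5, 4.22, 3.54 and 3.84 in set1, and 3.66, 4.04 and 3.55 in WT. The double mutant and ulp2 stood apart from each other and from the remaining groups, which overlapped. CLN2 to CLN3, a target gene over its activator, was 0.566, 0.575 and 0.524 in the double mutant, 0.395, 0.390 and 0.389 in ulp2, 1.08, 1.14 and 1.13 in slx5, 0.966, 0.982 and 1.001 in set1, and 1.33, 1.44 and 1.40 in WT. The 5 groups did not overlap on this ratio, in the order ulp2, ulp2 slx5, set1, slx5 and WT. The ratio was 0.282-fold that of WT in ulp2 and 0.400-fold in the double mutant (exact two-sided permutation test, p = 0.1 for each, adjusted p = 0.15 over 48 tests).

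CLN1 to CLN2 averaged 0.538 ± 0.032 in the double mutant, 0.527 ± 0.011 in ulp2, 0.433 ± 0.014 in slx5, 0.488 ± 0.060 in set1 and 0.664 ± 0.048 in WT (SD, n = 3 each). Each mutant lay below WT without overlap. SWI4 to WHI5, both parts of SBF control, averaged 0.674 ± 0.023 in the double mutant, 0.583 ± 0.070 in ulp2, 0.726 ± 0.076 in slx5, 0.525 ± 0.060 in set1 and 0.805 ± 0.060 in WT, and slx5 overlapped WT. CLB5 to SIC1 averaged 0.158 ± 0.0080 in the double mutant, 0.119 ± 0.0069 in ulp2, 0.181 ± 0.018 in slx5, 0.195 ± 0.021 in set1 and 0.218 ± 0.0070 in WT, and set1 overlapped WT. CLB5 to CLB6 overlapped WT in every mutant, at group means of 2.87 to 3.40 in the mutants and 3.03 in WT. Each non-overlapping difference had the smallest exact permutation p, 0.1 (adjusted p = 0.15).

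**Figure D4:**
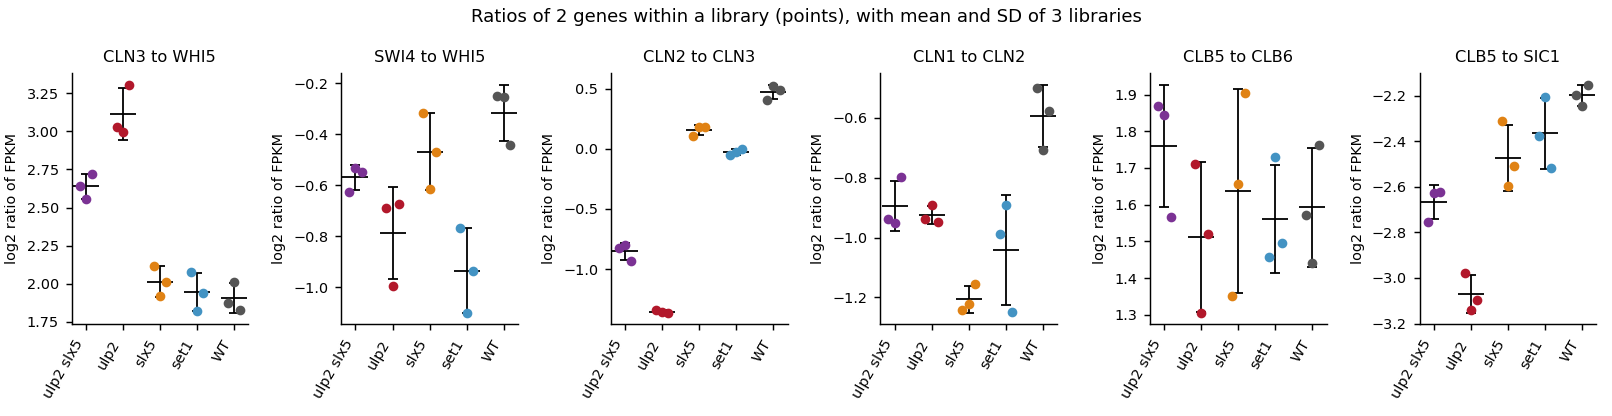
Log2 ratios of 2 genes within a library (vertical axes) for the 3 libraries of each group (points), with the mean and SD; groups run from the double mutant on the left to WT on the right. CLN3 to WHI5 is highest and CLN2 to CLN3 lowest in ulp2, at mean log2 ratios of 3.11 and -1.35.

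Other genes of the pathway were taken as lists, with the 10 genes left out, and their counts were also taken under 3 other scalings of the libraries, chosen after seeing the data. The counts of each list are set beside the shares of all tested genes, which in the double mutant were 32.9% that rose and 29.4% that fell, in ulp2 27.8% and 26.7%, in slx5 25.6% and 25.1%, and in set1 22.1% and 15.2%. Of 16 other genes of the Start machinery, 2 rose and 8 fell in the double mutant (median -0.19), where 29.4% of all tested genes fell, and 3 rose and 5 fell in ulp2 (median -0.12), where 26.7% fell. With libraries scaled to an equal FPKM sum, 2 rose and 2 fell in the double mutant, and 3 rose and 2 fell in ulp2, so this balance turned with the scaling. SRL3, the paralog of WHI5, rose by 2.93 in the double mutant, to 179 ± 7.48 FPKM, and by 2.01 in ulp2, to 94.9 ± 18.6 FPKM. WT had 22.8 ± 4.18 FPKM (SD, n = 3), and the limma adjusted p was 1.26e-08 in the double mutant and 6.11e-07 in ulp2. SRL3 also rose by 2.94 in slx5 (limma adjusted p = 1.71e-08) and by 1.76 in set1 (adjusted p = 5.89e-06). FAR1, an inhibitor of the Cln kinases that pheromone induces, fell by 1.01 in the double mutant. WHI3, which encodes an RNA-binding protein that holds back CLN3, fell by 0.43 there and by 0.57 in ulp2. WHI3 fell by 0.56 in slx5 too, where CLN3 did not pass the test (0.06). In set1 the WHI3 difference of -0.15 did not pass the test. The part of WHI3 in the CLN3 levels was not tested. SWI6, the shared subunit of SBF and MBF, lies on chromosome XII and rose by 0.40 in ulp2. It fell in the double mutant (-0.37, limma adjusted p = 6.37e-05) and in slx5 (-0.40, adjusted p = 5.04e-05). In set1 the SWI6 difference of 0.08 did not pass the test.

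Among SBF targets more genes fell than rose in each mutant, except that with an equal FPKM sum 4 rose and 3 fell in slx5. Of 17, 2 rose and 11 fell in the double mutant (median -0.34; 29.4% of all tested genes fell), 3 rose and 7 fell in ulp2 (median -0.22; 26.7%), 3 rose and 9 fell in slx5 (25.1%), and 1 rose and 11 fell in set1 (15.2%). With an equal FPKM sum, 3 rose and 4 fell in the double mutant, and 3 rose and 5 fell in ulp2. HO, the mating type switching endonuclease gene, fell to 7.61 ± 0.423 FPKM in the double mutant and to 11.4 ± 0.720 FPKM in ulp2, against 30.9 ± 1.12 FPKM in WT (-1.89 and -1.36). HO also fell in slx5 (-1.53) and in set1 (-0.53). OCH1, a mannosyltransferase gene, fell by 0.83 in ulp2, and also in the double mutant (-0.32), slx5 (-0.49) and set1 (-0.30). FKS1, a glucan synthase gene on chromosome XII, rose by 1.23 in ulp2, by 0.44 in the double mutant, by 0.38 in slx5 and by 0.43 in set1. Outside chromosomes I and XII, 1 rose and 7 fell of 15 in ulp2, and 1 rose and 11 fell of 15 in the double mutant. The shares of all tested genes given here include chromosomes I and XII, and shares outside them were not computed.

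MBF targets are mainly genes of DNA replication. Of 22, 4 rose and 7 fell in the double mutant (median 0.02), where 29.4% of all tested genes fell, and 4 rose and 12 fell in ulp2 (median -0.26), where 26.7% fell. The double mutant count moved with the scaling: 4 rose and 12 fell under quantile normalization (median -0.21), 4 rose and 8 fell with an equal median outside chromosomes I and XII, and 7 rose and 4 fell with an equal FPKM sum. In the direct comparison, double mutant minus ulp2, 13 rose and 3 fell (median 0.21), where 26.4% of all tested genes rose. Scaling to an equal median outside chromosomes I and XII left 6 that rose. Against WT, 5 of the 22 rose and 4 fell in slx5 (25.1% of all tested genes fell), and 1 rose and 7 fell in set1 (15.2%). With an equal FPKM sum these were 8 and 0 in slx5, and 2 and 7 in set1. In ulp2 the cohesin gene MCD1 fell by 0.80 and the ribonucleotide reductase gene RNR1 by 0.62. MCD1 also fell in the double mutant (-0.53), slx5 (-0.31) and set1 (-0.71). RNR1 also fell in set1 (-0.77) but was not called in the double mutant (-0.02) or slx5 (0.04). RFA1, which lies on chromosome I, rose by 0.67 in the double mutant, by 0.92 in ulp2 and by 0.47 in slx5.

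Of 9 early cell cycle box and MCM genes, 0 rose and 7 fell in the double mutant (median -0.36), where 29.4% of all tested genes fell. In slx5 0 rose and 7 fell too (median -0.38), where 25.1% fell, and 1 rose and 3 fell with an equal FPKM sum. In set1 1 rose and 3 fell, where 15.2% fell. In ulp2 1 rose and 5 fell (median -0.16), where 26.7% fell, the riser being MCM5 on chromosome XII, while with an equal FPKM sum 2 fell in the double mutant and 0 in ulp2. Of 12 genes of the mitotic cyclin cluster, 1 rose and 8 fell in the double mutant (median -0.32; 29.4% of all tested genes fell), and 3 rose and 4 fell in ulp2 (median 0.04; 26.7%), where an equal FPKM sum gave 4 that rose and 2 that fell. With an equal FPKM sum, 1 of these 12 rose and 5 fell in the double mutant. In slx5 2 rose (25.6% of all tested genes) and 3 fell (25.1%), and in set1 5 rose (22.1%) and 1 fell (15.2%). The equal FPKM sum gave 2 that rose and 2 that fell in slx5, and 2 and 1 in set1. The mitotic cyclin gene CLB1 fell by 0.56 in the double mutant and by 0.72 in ulp2.

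Of 10 other genes of Pho85 and its cyclins, 1 rose and 5 fell in the double mutant, where 29.4% of all tested genes fell, and 2 rose and 5 fell in ulp2, where 26.7% fell. In slx5 1 rose and 5 fell, where 25.1% of all tested genes fell. With an equal FPKM sum, 1 rose and 1 fell in the double mutant and likewise in slx5. PCL5, whose cyclin turns over the regulator Gcn4, rose to 600.1 ± 11.0 FPKM in the double mutant and to 871 ± 104 FPKM in ulp2, against 320 ± 25.5 FPKM in WT, and PCL9 fell by 0.67 and 0.85 in those strains. In slx5 and set1, PCL5 rose by 0.94 and 0.67, and PCL9 fell by 0.47 and 0.36. Pheromone-induced genes, 10 in the list, were counted beside the mating type genes: 3 rose and 4 fell in the double mutant, whereas 8 rose and 0 fell in ulp2, 7 and 0 in slx5, and 6 and 0 in set1. FIG1 rose to 10.9 ± 0.555 FPKM in the double mutant and to 46.0 ± 1.54 FPKM in ulp2, against 3.06 ± 0.175 FPKM in WT. The part of pheromone signalling in the levels of the 10 genes was not tested.

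**Figure D5:**
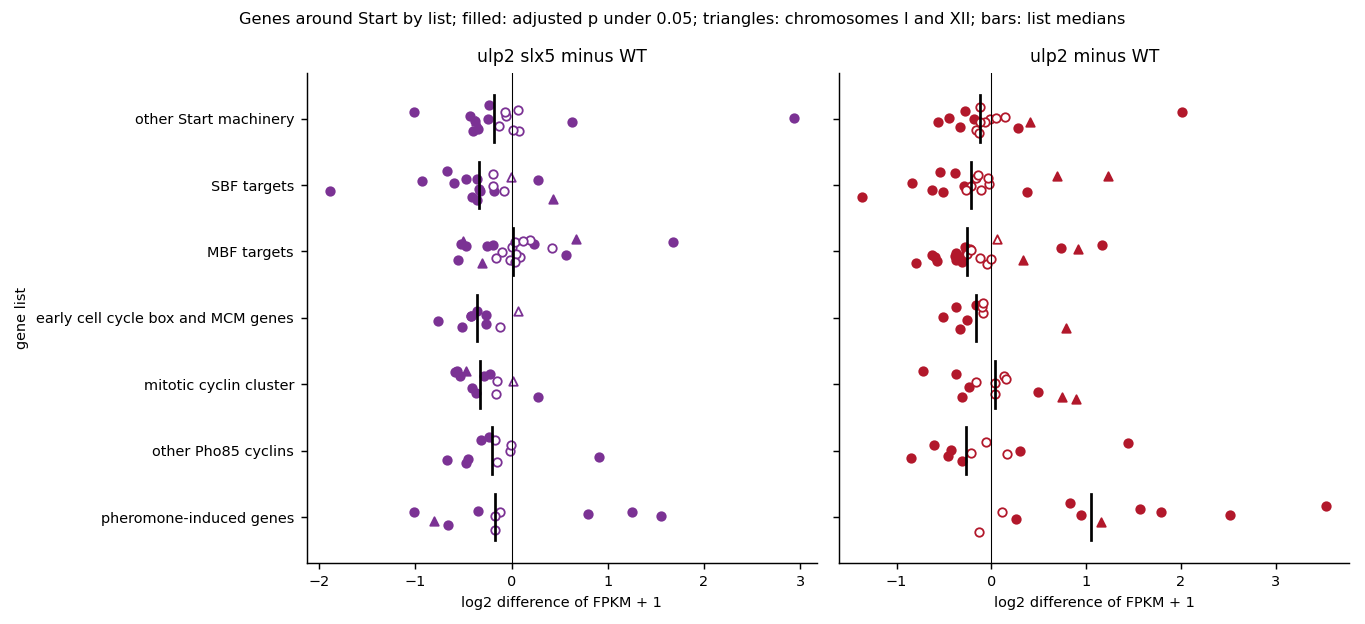
Log2 differences of FPKM + 1 (horizontal axes) of the genes of 7 lists for ulp2 slx5 minus WT (left) and ulp2 minus WT (right); filled symbols have an adjusted p under 0.05, triangles lie on chromosomes I and XII, and black bars are list medians. The MBF targets have a median of 0.02 on the left and -0.26 on the right, and the pheromone-induced genes -0.17 and 1.05.

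The genes most like the 3 CLN genes over the 15 libraries were named by Pearson correlation of log2(FPKM + 1) among 5687 genes whose mean reached 10 FPKM. The libraries fall into 5 groups, so these values mainly compare group means. CLN3 was most like VPS8 (0.98), RED1 (0.96), CDC15 (0.96), CYC3 (0.96) and CDC25 (0.96), which lie on chromosomes I and XII. Among genes that the annotation places on other chromosomes, it was most like ADH2 (0.93), WSC3 (0.92) and AQY1 (0.91). Among the 5 genes most like CLN1 were AGE2 (0.95), APA1 (0.95), CLB5 (0.94) and SAC6 (0.94), and CLB5 is another of the 10 genes. CLN2 was most like SEC2 (0.94), BIM1 (0.93), SBP1 (0.93), WSC4 (0.93) and POL12 (0.93), the last an MBF target of the list above.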

How the data were processed

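The deposited table gives FPKM for 7126 genes in 15 libraries. TopHat2 2.0.12, Cuffdiff and build R64 are named in the submitters' processing notes. The authors thus deposited values already normalized as FPKM, and their settings and the strandedness are not given in the sources used here. Counts were not used here, so depth is known only relative to WT replicate 1 and no counting interval was computed. Positions and symbols came from the R64 annotation, which matched 6048 genes by systematic name and left 1078 without a match.

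Values were analysed as log2(FPKM + 1), so fold changes of low genes are understated. A single limma 3.58.1 fit (R 4.3.3, lmFit and eBayes with a trend) held all 15 libraries, with 10 residual degrees of freedom, for the 6474 genes that reached 1 FPKM in 3 or more libraries, and was tested on simulated data. The 8 comparisons set each mutant beside WT, the double mutant beside ulp2 and beside slx5, and ulp2 beside slx5 and beside set1. The interaction of both deletions was added after seeing the data. Benjamini-Hochberg adjustment covered all tested genes of a comparison, and an adjusted p under 0.05 was called. Ratios and values relative to a chromosome used exact two-sided permutation tests.

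Replicate numbers were not taken as pairs: no label links them, and deviations of same-numbered libraries from their group means correlated by -0.128 to 0.14 over 30 pairs, 2 of them over 0.1. A fit with the number as a block was an alternative, as were other pseudocounts, filters and scalings (quantile normalization, an equal median outside chromosomes I and XII, and an equal FPKM sum without RPL41A and RPL41B, which held 3.09% to 21.7% of a library's FPKM), eBayes without a trend, fits on only the groups compared, and leaving out each library. List genes named are the 2 largest called rises and the 2 largest called falls per list in ulp2 and in the double mutant against WT, if the mean reached 10 FPKM in either group, and the text gives a part of them. The 10 genes and the lists were chosen with earlier results of these data known. Certain genes, 1 gene list and 1 upstream sequence are not reported here.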

Additional observations from a re-analysis of the deposited data

Results flagged for a closer look

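For 5 of the 10 genes, the double mutant differed from what the sum of the ulp2 and slx5 differences from WT would give, by an interaction term in the limma fit that was added after seeing the data. Of all tested genes, 20.0% had a positive and 21.8% a negative interaction at an adjusted p under 0.05. CLN1 had the largest, 0.90 ± 0.11 (SE, adjusted p = 2.73e-05): its log2 difference from WT was -0.94 in the double mutant, -0.99 in ulp2 and -0.85 in slx5. The other 457 tested genes of chromosome XIII, where CLN1 lies, had a median interaction of 0.42. Of these, 268 had a positive and 32 a negative interaction at an adjusted p under 0.05. CLN3 had -0.54 (adjusted p = 0.00342), on a chromosome whose other 90 genes had a median interaction of -0.67. CLB5 had 0.43 (adjusted p = 0.00224), SWI4 0.38 (adjusted p = 0.0206) and PCL1 -0.35 (adjusted p = 0.0116). CLN1 and CLN3 kept the call in all 21 alternatives. SWI4 lost it in 4, among them without ulp2 slx5 replicate 1 (adjusted p = 0.0541) and without WT replicate 1 (adjusted p = 0.0507). PCL1 and CLB5 each lost it under scaling to an equal FPKM sum (adjusted p = 0.0596 and 0.0652). The double mutant and WT expressed MATa genes and ulp2 and slx5 MATalpha genes, so mating type and the interaction cannot be told apart.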

How the results depend on the processing

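Each difference of the 10 genes from WT was followed under 15 or 16 alternatives. Between mutants, only the differences of CLN1, CLN2, CLN3, PCL1, SWI4 and SIC1 were followed, and interactions only for the genes flagged above. Counts of called genes cover all 10. In ulp2 and the double mutant against WT, CLN1, CLN2, CLN3 and CLB5 kept direction and call in all 16, as did CLN1 and CLB5 in slx5 and set1. With the replicate block, 7 genes were called in ulp2 minus WT (8 without it), 7 in ulp2 slx5 minus WT, 3 in slx5 minus WT and 5 in set1 minus WT (6 without it), where the call of CLB6 was lost (adjusted p = 0.0511 in ulp2 and 0.0676 in set1). It called 6 in ulp2 minus set1 (4 without it), PCL1 among them (0.15, adjusted p = 0.0354), and as many as without it in the other comparisons. Quantile normalization called 5 of the 10 in slx5 minus WT and 5 in ulp2 slx5 minus slx5. An equal median outside chromosomes I and XII called 5 in slx5 minus WT. An equal FPKM sum without RPL41A and RPL41B called 2 in ulp2 minus set1 and 2 interactions. Fitting only the groups compared called 1465 genes in set1 minus WT (943 higher and 522 lower), against 1430 higher and 983 lower in the fit to all libraries.

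Among the differences followed, directions reversed only for values not called. With the equal FPKM sum, MBP1 was 0.011 and WHI5 0.026 in ulp2, PCL1 0.067 and WHI5 0.11 in slx5, and WHI5 0.10 and SIC1 0.081 in the double mutant, all against WT. With quantile normalization, MBP1 was -0.018 in slx5 and -0.095 in the double mutant against WT, and CLN2 -0.032 in ulp2 slx5 minus ulp2. With the equal median, MBP1 was -0.056 in ulp2 slx5 minus WT, and CLN1 -0.074 and CLN2 -0.10 in ulp2 slx5 minus ulp2. Leaving out 1 library at a time, MBP1 against WT ran from -0.048 to 0.11 in the double mutant, -0.13 to 0.031 in ulp2, -0.027 to 0.13 in slx5 and -0.085 to 0.081 in set1. WHI5 ran from -0.16 to 0.013 in ulp2 and -0.10 to 0.024 in slx5, and CLN3 from -0.0068 to 0.13 in slx5. In ulp2 slx5 minus ulp2, CLN1 ran from -0.029 to 0.11 and CLN2 from -0.052 to 0.064, and in ulp2 slx5 minus slx5 SIC1 from -0.00084 to 0.14. The cause was not tested.

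Scaling moved all genes. The equal FPKM sum set the median of all tested genes at 0.19 in ulp2 slx5 minus WT and 0.15 in slx5 minus WT, quantile normalization at -0.11 in ulp2 slx5 minus WT, and the equal median at -0.14 in ulp2 slx5 minus ulp2. Rises made up 52.8% of calls in ulp2 slx5 minus WT, and 39.9% (quantile) or 72.5% (equal sum). They made up 51.0% in ulp2 minus WT, and 39.2% or 65.5%. In slx5 minus WT they were 50.5%, and 40.5% (quantile) or 75.7% (equal sum). In set1 minus WT they were 59.3%, and 48.6% with quantile. In ulp2 slx5 minus ulp2 they were 50.2%, and 34.4% (equal median) or 61.6% (equal sum). In ulp2 slx5 minus slx5 they were 56.2%, and 44.6% (quantile) or 44.9% (equal median). In ulp2 minus slx5 they were 49.6%, and 63.1% (equal median) or 38.8% (equal sum), in ulp2 minus set1 46.7%, and 63.2% (equal sum), and for the interaction 47.8%, and 35.3% (equal median) or 36.8% (equal sum). Library depth in reads is not known, and CLB6, under 12 FPKM in each library, is the gene whose calls changed most.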
